A study of Homo sapiens with 16 samples.

Results

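The genes followed here act in cholesterol synthesis, sterol transport and sterol sensing: CYP51A1, SC5D, NSDHL, HMGCS1, SQLE, STARD4 and INSIG1. They are 7 of the 18395 genes of the gene-level table and were chosen by their names after their values in these arrays were known, so their differences between the induction labels are given as a description, with no test. A feature counted for a gene when that gene was its only symbol, current or former (SC5D was listed as SC5DL). This gave 8 of 33297 gene-level features and 66 of 257430 exon-level features, and all 7 genes passed the filter on low values. The cells were L1236, an established human Hodgkin lymphoma line, and every sample carried a retrovirus delivering a short hairpin RNA against RELB, a DNA-binding NF-kB subunit. Arrays labelled induced came from cells given doxycycline, which switches the hairpin on, and arrays labelled uninduced came from infected cells left without it (n = 4 each). The 16 samples are 8 arrays, each summarised once by gene and once by exon. The titles give each array of a group its own combination of a B code, B_1 or B_4, and a closing number, 1 or 4, and no label explains either. Below, an array is named by the 2 codes, as B_4/1, and arrays are always listed as B_1/1, B_1/4, B_4/1 and B_4/4. No label says that the arrays of a group were separate cultures, so the spread behind each p-value is that of these arrays and could be technical.

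Cholesterol is built from acetyl-CoA through mevalonate, squalene and lanosterol, the first sterol of the route. When membrane cholesterol is low, SCAP carries the SREBP transcription factors to the Golgi, where proteases release them to switch on the genes of synthesis and uptake. When cholesterol is plentiful, INSIG proteins hold SCAP back in the endoplasmic reticulum. Genes under this common control usually move together. HMGCS1 makes the precursor of mevalonate and SQLE oxidises squalene. CYP51A1 removes a methyl group from lanosterol, NSDHL acts in the removal of further methyl groups, and SC5D adds a double bond late in the route. STARD4 carries cholesterol between membranes, and INSIG1 is both a sensor of the loop and its target.

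Values are log2 signals after robust multi-array averaging (RMA), with base 2 assumed, so a difference of 1 is a doubling and levels of different genes cannot be compared. RELB itself, the target of the hairpin, had 7.22, 7.26, 7.39 and 7.14 in arrays labelled induced, against 7.23, 7.38, 7.54 and 7.45 in arrays labelled uninduced. The groups overlapped, and the difference of -0.15 did not pass an exact permutation test (two-sided p = 0.171, the smallest possible being 0.0286). Depletion of RELB mRNA was therefore not detected, and the groups are called by their labels throughout. The label separated much of the transcriptome: limma called 55.5% of 13796 tested genes at an adjusted p under 0.05. Lineage markers moved too. The B-cell gene CD79A averaged 11.04 ± 0.26 in arrays labelled induced and 5.73 ± 0.13 in those labelled uninduced (SD, n = 4 each), and TNFRSF8, which encodes the Hodgkin marker CD30, 11.59 ± 0.10 and 6.89 ± 0.21. Other Hodgkin markers went the other way, among them BATF3, with a difference of -4.31, and ID2, with -5.22 and a dim mean of 4.19 in arrays labelled induced. FAP, a fibroblast marker, had 3.29 ± 0.12 in arrays labelled induced and 8.56 ± 0.45 in arrays labelled uninduced. The first value is under the lowest mean of any tested gene (4.78), so FAP passed the filter through the arrays labelled uninduced. Of the other tested fibroblast markers, COL1A1, COL1A2 and COL3A1 did not pass and PDGFRB was higher (0.59). Of the tested B-cell markers 5 of 7 were higher with the induced label and 0 were lower (mean level of the list 8.12 to 8.47 in arrays labelled induced and 6.37 to 6.46 in those labelled uninduced). Of the Hodgkin list 5 of 12 were higher and 5 lower (7.87 to 8.18 and 8.23 to 8.32). Of the T-cell list 0 of 3 tested genes passed, with CD3D and CD3E below the filter (mean level of the list 4.98 to 5.17 in arrays labelled induced and 4.87 to 5.05 in those labelled uninduced), of the myeloid list 1 of 3 was lower (4.11 to 4.35 and 4.12 to 4.30), and of the fibroblast list 1 of 5 was higher and 1 lower (4.68 to 4.78 and 5.18 to 5.30). What part these marker differences have in the sterol values was not tested. In such bulk samples, fewer cells of a type and less RNA per cell cannot be told apart. Whether both groups hold the same cells was not tested. A difference between labels, here and below, therefore cannot be told apart from a difference between cells.

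The start regions of CYP51A1, STARD4, HMGCS1 and INSIG1 are shown because CYP51A1 had the widest difference between labels and the other 3 were lowest in the same array labelled induced, as described further on. Each is 250 bases before to 50 bases after a start listed for the gene on GRCh38.p14, written 5′ to 3′ in the direction of the gene. The windows are chr7:92134428-92134727 on the minus strand for CYP51A1, chr5:111512486-111512785 on the minus strand for STARD4, chr5:43313363-43313662 on the minus strand for HMGCS1 and chr7:155297628-155297927 on the plus strand for INSIG1. RefSeq places the CYP51A1 gene at 92112153 to 92134803, so its window lies inside the gene, while the other 3 windows reach outside theirs. The bases before the outer end of CYP51A1 were not searched. Capitals mark matches on either strand to 2 motifs. The first is CCAAT, which reads ATTGG when it lies on the opposite strand. The second is the GC box, spelled GGGCGG, or CCGCCC when it lies on the opposite strand.
CYP51A1: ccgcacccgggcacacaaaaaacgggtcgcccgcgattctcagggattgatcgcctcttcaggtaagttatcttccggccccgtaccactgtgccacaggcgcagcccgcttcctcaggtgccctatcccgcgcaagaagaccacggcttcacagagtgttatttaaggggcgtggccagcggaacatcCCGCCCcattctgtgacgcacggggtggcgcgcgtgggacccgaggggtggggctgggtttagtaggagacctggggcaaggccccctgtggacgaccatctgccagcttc
STARD4: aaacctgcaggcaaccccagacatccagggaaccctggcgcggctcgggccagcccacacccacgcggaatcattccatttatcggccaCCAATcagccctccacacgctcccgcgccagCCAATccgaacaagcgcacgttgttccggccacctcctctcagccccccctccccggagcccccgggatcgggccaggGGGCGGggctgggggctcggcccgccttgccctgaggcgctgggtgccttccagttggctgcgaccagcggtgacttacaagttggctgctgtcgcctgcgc
HMGCS1: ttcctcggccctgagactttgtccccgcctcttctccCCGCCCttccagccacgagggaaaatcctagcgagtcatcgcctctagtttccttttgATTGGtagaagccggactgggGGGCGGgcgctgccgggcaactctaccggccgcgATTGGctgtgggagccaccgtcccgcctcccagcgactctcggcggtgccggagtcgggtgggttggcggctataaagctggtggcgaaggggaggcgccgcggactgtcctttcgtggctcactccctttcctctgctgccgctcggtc
INSIG1: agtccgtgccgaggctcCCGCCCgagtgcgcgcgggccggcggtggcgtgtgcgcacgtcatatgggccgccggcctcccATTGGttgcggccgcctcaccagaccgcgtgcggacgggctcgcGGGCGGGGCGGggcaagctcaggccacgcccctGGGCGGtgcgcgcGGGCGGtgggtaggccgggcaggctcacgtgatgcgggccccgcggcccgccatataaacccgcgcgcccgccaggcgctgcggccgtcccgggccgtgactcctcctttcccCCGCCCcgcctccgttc
The CYP51A1 window held 1 GC box, 61 bases before the start used for it, and 0 CCAAT matches. STARD4 had 2 CCAAT matches and 1 GC box, HMGCS1 2 of each, and INSIG1 1 CCAAT match and 6 GC boxes, 2 of which overlap. SC5D had 1 of each, NSDHL had 5 CCAAT matches and 0 GC boxes, and SQLE was not searched. Over all 35116 windows of the table, 34.6% held CCAAT and 45% held GGGCGG. Among the genes under common sterol control, 14 had a window, of which 12 held CCAAT (not CYP51A1 or IDI1) and 13 held GGGCGG (not NSDHL). The sterol element TCACNCCAC was found in 0 of these 14 windows and in 1.13% of all windows. A match describes letters in this window only.

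CYP51A1 was lower in the arrays labelled induced by the widest margin of the 7 genes. Its brighter gene-level feature (8180268) had 4.29, 5.31, 5.17 and 4.65 in arrays labelled induced, against 10.60, 10.59, 10.62 and 10.53 in arrays labelled uninduced. The lowest array labelled uninduced thus lay 5.23 log2 units above the highest array labelled induced. The mean difference was -5.73, or 53.1-fold lower. Its mean in arrays labelled induced, 4.86 ± 0.47, was close to the lowest mean of any tested gene (4.78), so the signal there is dim and RMA compresses such values. In arrays labelled uninduced the mean was 10.59 ± 0.04 (SD, n = 4 each).

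The second gene-level feature of CYP51A1 (8140864) gave a smaller difference in the same direction. It had 5.62, 5.75, 5.76 and 6.24 in arrays labelled induced, against 9.66, 9.65, 9.43 and 9.63 in arrays labelled uninduced. The means were 5.84 ± 0.27 and 9.59 ± 0.11 (SD, n = 4 each), a difference of -3.75, or 13.5-fold lower, and the groups again did not overlap. RefSeq lists 3 CYP51A1 pseudogenes and the antisense RNA gene CYP51A1-AS1 beside it, and whether the probes also match their RNA was not tested. The size of the fall thus depended on the feature, and the direction did not.

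SC5D and NSDHL, which act after CYP51A1 in the route, were also lower in every array labelled induced. SC5D had 6.35, 5.76, 5.85 and 6.04 in arrays labelled induced, against 8.23, 8.11, 7.87 and 7.85 in arrays labelled uninduced. The difference was -2.02, or 4.05-fold lower (SD 0.26 in arrays labelled induced and 0.18 in arrays labelled uninduced). NSDHL had 8.07, 7.77, 7.72 and 7.60 in arrays labelled induced, against 8.74, 8.75, 8.95 and 8.83 in arrays labelled uninduced. It was 2.04-fold lower, a difference of -1.03 (SD 0.20 in arrays labelled induced and 0.10 in arrays labelled uninduced). Neither gene's groups overlapped, and each moved far less than either CYP51A1 feature.

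Of the enzymes before lanosterol, HMGCS1 was slightly lower and SQLE averaged slightly higher. HMGCS1 had 10.33, 9.95, 9.07 and 9.73 in arrays labelled induced, against 10.41, 10.44, 10.67 and 10.54 in arrays labelled uninduced. Its groups did not overlap, yet array B_1/1 labelled induced came within 0.08 of the array labelled uninduced with the same codes. The mean difference of -0.75 was 1.68-fold (SD 0.53 in arrays labelled induced and 0.12 in arrays labelled uninduced). SQLE had 11.18, 10.80, 10.48 and 10.86 in arrays labelled induced, against 10.22, 10.13, 10.53 and 10.46 in arrays labelled uninduced. Its groups overlapped through array B_4/1, and its mean difference was 0.50 (SD 0.28 in arrays labelled induced and 0.19 in arrays labelled uninduced).

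STARD4, the sterol carrier, was the member that was clearly higher. It had 11.40, 11.37, 10.75 and 11.39 in arrays labelled induced, against 8.56, 8.55, 9.04 and 8.97 in arrays labelled uninduced. The difference was 2.45, or 5.47-fold higher, without overlap (SD 0.32 in arrays labelled induced and 0.26 in arrays labelled uninduced). INSIG1, the sensor, had 10.11, 10.06, 9.36 and 10.20 in arrays labelled induced, against 9.80, 9.76, 9.85 and 9.73 in arrays labelled uninduced. Its mean difference was 0.15 (SD 0.39 in arrays labelled induced and 0.05 in arrays labelled uninduced), and between the B_4/1 arrays the sign was opposite. In all, 5 of the 7 genes did not overlap between labels, 4 of them lower and 1 higher, where 49.8% of all tested genes did not overlap. This contrast was used to choose the genes, so nothing is read from that count.

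**Figure D1:**
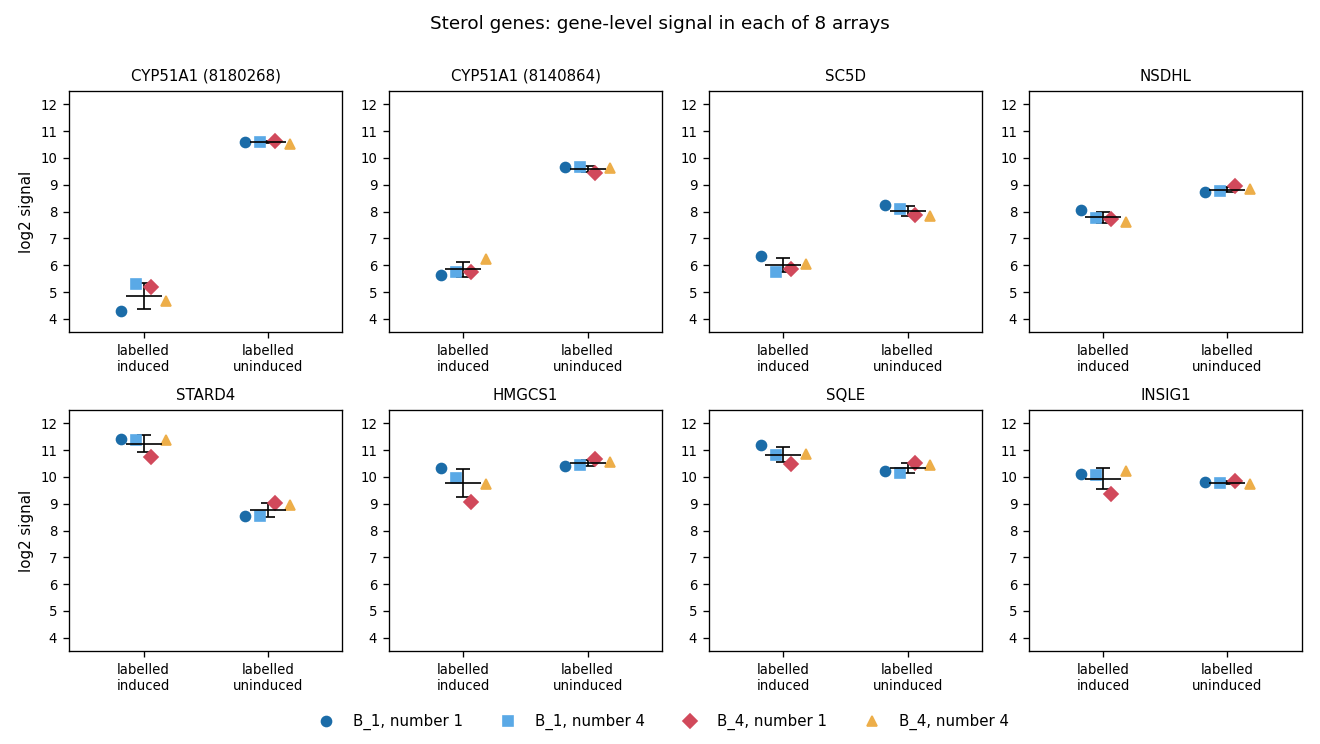
Log2 signal of the 7 genes at gene level (8 features, since CYP51A1 has 2) in each array, labelled induced on the left and labelled uninduced on the right; markers give the B code and last number, and bars the mean ± SD (n = 4). CYP51A1 sits between 4.29 and 5.31 in arrays labelled induced on its first feature and near 10.6 in arrays labelled uninduced, and the red diamond (B_4/1) is the lowest labelled-induced point for STARD4, HMGCS1, SQLE and INSIG1.

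The exon-level features give these differences for smaller parts of each gene, and their place in the transcript was not looked up. They share probes with the gene-level features and are not further replicates. CYP51A1 has 4 of them. On feature 8140865 it had 3.36, 3.19, 3.10 and 5.19 in arrays labelled induced, against 11.31, 11.17, 11.22 and 11.24 in arrays labelled uninduced, a difference of -7.53. Features 8140866 and 8140867 differed by -6.32 and -3.69. On 8140865 and 8140866 the means in arrays labelled induced, 3.71 and 2.82, were under the exon-level filter value of 4.77, so the size of these differences is uncertain. The fourth (8140868) was dim in both groups, with 5.15, 4.21, 4.32 and 4.89 against 5.19, 4.96, 4.97 and 5.50, and its groups overlapped. For CYP51A1, 3 of 4 exon-level features were thus lower without overlap, for SC5D 8 of 10, for NSDHL 7 of 11 and for HMGCS1 5 of 10. Among features that overlapped, the highest differences were 0.42 for SC5D and 0.03 for NSDHL. STARD4 was higher without overlap on 10 of 10, with differences from 1.20 to 3.14. SQLE was higher without overlap on 3 of 11, and INSIG1 overlapped on 10 of 10, with differences from -0.05 to 0.31. Across the exon-level table, 36.6% of 168240 features above the filter did not overlap.

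**Figure D2:**
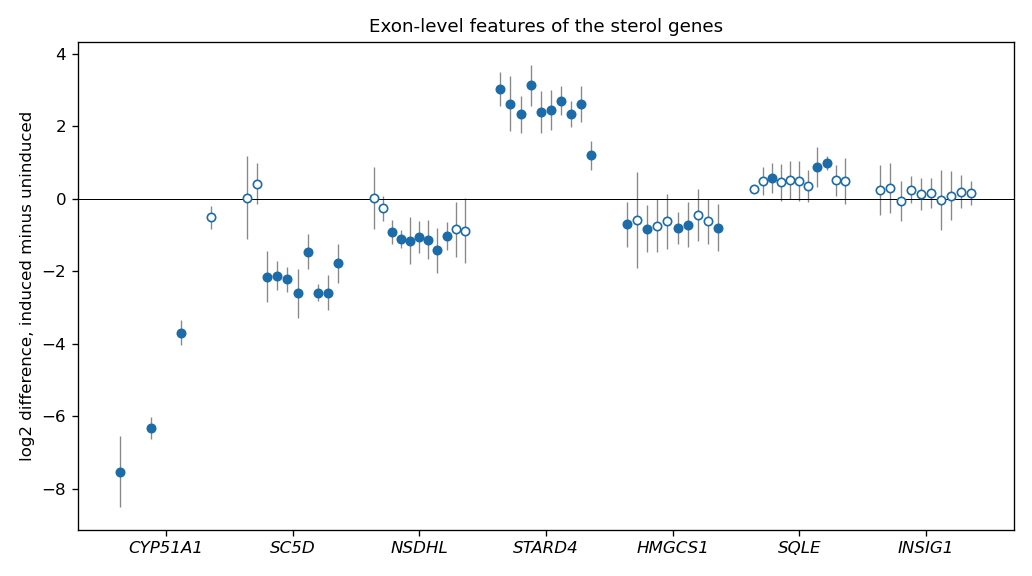
Log2 difference, arrays labelled induced minus arrays labelled uninduced, for each of the 66 exon-level features of the 7 genes; each point is 1 feature, the bar is ± SD over the 4 differences between arrays of equal codes, and filled points are features whose groups do not overlap. The CYP51A1 features run from -7.53 to -0.51, and all 10 of STARD4 lie above 1.

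Whether CYP51A1 departed from genes under common sterol control was described against 15 others measured here (SC5D, NSDHL, HMGCS1, SQLE, STARD4, INSIG1, ACAT2, MVD, IDI1, FDPS, LSS, MSMO1, EBP, DHCR7 and TMEM97). Arrays of equal codes were set side by side as a description, since the codes are not known to pair them. For B_1/1, B_1/4, B_4/1 and B_4/4, CYP51A1 differed by -6.31, -5.28, -5.45 and -5.88. The lowest of the 15 others was SC5D each time, with -1.88, -2.36, -2.02 and -1.81. The highest was STARD4 each time, with 2.84, 2.83, 1.72 and 2.42. The median of the 15 was 0.27, -0.06, -0.49 and 0.17. On this contrast CYP51A1 therefore lay outside the range of the other 15 genes for all 4 combinations of codes, on both gene-level features.

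Of the 9 of these genes that are not among the 7, limma called 3 higher and 3 lower between the labels, and 3 did not pass. The gene lists were chosen with earlier results of these data known, so limma calls within them, here and below, are a description. Over all tested genes, 27.1% were called higher and 28.4% lower. Those higher were ACAT2 (0.58), IDI1 (0.32) and FDPS (0.61), which act before lanosterol. Lower were MVD (-0.60), the enzyme that makes isopentenyl diphosphate, MSMO1 (-1.22 ± 0.18 SE, adjusted p = 0.000158), which oxidises methyl groups after CYP51A1, and TMEM97 (-0.37), a regulator of NPC1, whose call was lost with exon-level means (adjusted p = 0.13 by limma). LSS, EBP and DHCR7 had differences of 0.14, -0.11 and -0.03. The genes named here and not in the rule for named genes (ACAT2, IDI1, FDPS, MVD, TMEM97, LSS, EBP and DHCR7) were chosen after their values were seen.

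The enzymes were also counted on each side of lanosterol, a split made after the values were seen and not tested. Of 7 enzymes up to lanosterol that are not among the members, limma called 5 higher and 1 lower (MVD), 1 did not pass (LSS), and the median difference was 0.50. Of 5 such enzymes after it, limma called 0 higher and 3 lower, 2 did not pass (EBP and DHCR7), and the median was -0.65. The member HMGCS1 acts before lanosterol and was lower. Over all tested genes, 27.1% were called higher and 28.4% lower, and the median was 0.02. The call of MVK, among the 5 higher up to lanosterol, was lost with exon-level means (adjusted p = 0.143 by limma). The 3 non-members lower after lanosterol were TM7SF2 (-0.92) and LBR (-0.65), both sterol reductases, and MSMO1.

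**Figure D3:**
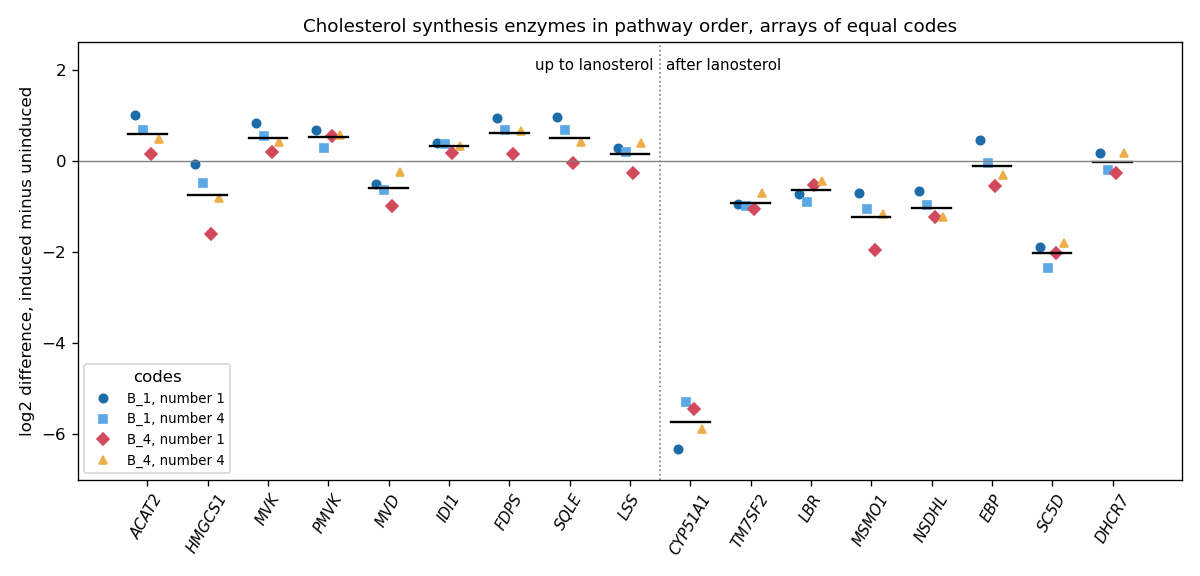
Log2 difference, arrays labelled induced minus arrays labelled uninduced, for 17 enzymes of cholesterol synthesis in pathway order; points are the 4 differences between arrays of equal codes and black lines the means. CYP51A1 lies at -5.28 or below in all 4, while no other enzyme falls below -2.36.

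Of the sterol-sensing genes other than INSIG1, 6 of 10 tested were called higher with the induced label and 3 lower, against 27.1% and 28.4% of all tested genes. SREBF1, the gene of the SREBP that drives mainly lipid synthesis, rose by 1.39 ± 0.11 (SE, adjusted p = 1.48e-06 by limma). SREBF2, that of the SREBP that drives mainly cholesterol synthesis, rose by 0.83 ± 0.10 (adjusted p = 2.45e-05). SCAP, their escort, had a difference of 0.24 ± 0.08 (adjusted p = 0.0364 by limma), a call lost in 8 of 17 alternatives (adjusted p up to 0.142). INSIG2, the relative of INSIG1, had 9.52, 9.59, 8.04 and 9.70 in arrays labelled induced, against 8.23, 8.30, 8.31 and 8.18 in arrays labelled uninduced. It was called higher (0.96 ± 0.26, adjusted p = 0.00866 by limma), but its B_4/1 array labelled induced was below all 4 arrays labelled uninduced. RNF145, a sterol-responsive ubiquitin ligase, fell by 1.07 (adjusted p = 4.24e-06 by limma).

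Across all sterol genes other than the 7, 34 of 40 tested passed (21 higher and 13 lower), where 27.1% of all tested genes were higher and 28.4% lower, with a median difference of 0.25 against 0.02 for all tested genes. The lists hold 55 such genes, of which 45 were measured. In uptake and transport without STARD4, 6 of 12 were higher and 5 lower. Among those higher, the call of STARD3 was lost in 11 of 17 alternatives and that of STARD5 in 3 of 16 (adjusted p up to 0.162 and 0.062 by limma). GRAMD1B, which moves cholesterol from the plasma membrane, rose by 3.12 ± 0.11, and SCARB1, a lipoprotein receptor, by 2.25 ± 0.10 (SE; adjusted p = 1.54e-09 and 1.41e-08 by limma). OSBPL1A, an oxysterol-binding protein, fell by 1.87 (adjusted p = 2.33e-07 by limma). In storage and efflux, 4 of 6 tested genes were higher and 1 lower. SOAT1, which esterifies cholesterol, rose by 1.15, and MYLIP, a ubiquitin ligase, fell by 3.35 ± 0.08 (adjusted p = 1.08e-10 by limma), the second largest fall after CYP51A1 in the sterol lists.

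Fatty acid synthesis, which SREBPs also drive, had 7 of 9 tested genes higher and 1 lower, against 27.1% and 28.4% of all tested genes, with a median of 0.41. FASN, the fatty acid synthase, averaged 10.04 ± 0.05 in arrays labelled induced and 9.02 ± 0.07 in arrays labelled uninduced (SD, n = 4 each; adjusted p = 1.30e-06 by limma). The desaturase FADS1 rose by 3.64 ± 0.13 and FADS2 by 2.15 ± 0.13 (SE; adjusted p = 2.46e-09 and 1.60e-07 by limma). Both averaged 4.81 in arrays labelled uninduced, close to the lowest tested mean of 4.78, so these sizes rest on a dim signal. Unlike FASN, FADS1 and FADS2, the genes CYP51A1, SC5D, NSDHL and HMGCS1 had lower values with the induced label. So did ACLY (-0.37), the 1 fatty acid gene called lower.

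Among the arrays labelled induced, array B_4/1 had the lowest value for most genes under sterol control. Against the mean of the other 3 arrays labelled induced, B_4/1 differed by -0.94 for HMGCS1, -0.77 for INSIG1, -0.64 for STARD4 and -0.46 for SQLE. SC5D and NSDHL differed by -0.20 and -0.09, and another array was lowest for both. CYP51A1 differed by 0.42 on feature 8180268 and by -0.11 on feature 8140864. Its signal in these arrays is dim, and its sign differed between features, so no order is read from it. All 15 other genes under sterol control were below the mean of the other 3 arrays, 13 of them with their lowest value in B_4/1 (86.7%), with a median of -0.46. Of the 9 that are not members, 9 were lowest there, and MSMO1 was among them. INSIG2 was lower by -1.56 and 8 of 9 fatty acid genes were lowest there. Over all tested genes, B_4/1 was the lowest of the 4 arrays for 24% and the median was 0.01. Array B_1/1 lay the other way: 1 of the 15 genes was below the mean of the other 3 arrays. The median there was 0.31, against 0.04 over all tested genes.

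On exon-level features, STARD4 was lowest in array B_4/1 among arrays labelled induced on 10 of 10, HMGCS1 on 9 of 10, INSIG1 on 9 of 10 and SQLE on 8 of 11. For CYP51A1, SC5D and NSDHL this held on 1 of 4, 3 of 10 and 3 of 11. On 3 of its 4 features CYP51A1 was below the mean of the other 3 arrays, with a median of -0.27. Over tested genes, array B_4/1 correlated with the other arrays labelled induced at 0.9917 to 0.9928, against 0.9917 to 0.9934 for the others. Such correlations mostly follow the levels that differ between genes, so they cannot show whether B_4/1 stood apart. Low values in B_4/1 were not confined to sterol genes. Its mean over the Hodgkin and B-cell marker lists lay -0.23 and -0.22 from the other 3 arrays. Of the tested B-cell markers, CD79A, CD22, PAX5, POU2AF1 and BLNK were lowest there, and CD79B and POU2F2 were not. Of the Hodgkin list, TNFRSF8, IRF4, CD70, TRAF1, JUNB, ID2 and EBI3 were lowest there, and FUT4, FSCN1, CCL17, CCL22 and BATF3 were not. What part this has in the sterol values was not tested. The B_4/1 array labelled uninduced was lowest for 0 of the 15 genes. Genes in this comparison share arrays, so the counts describe a single array.

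**Figure D4:**
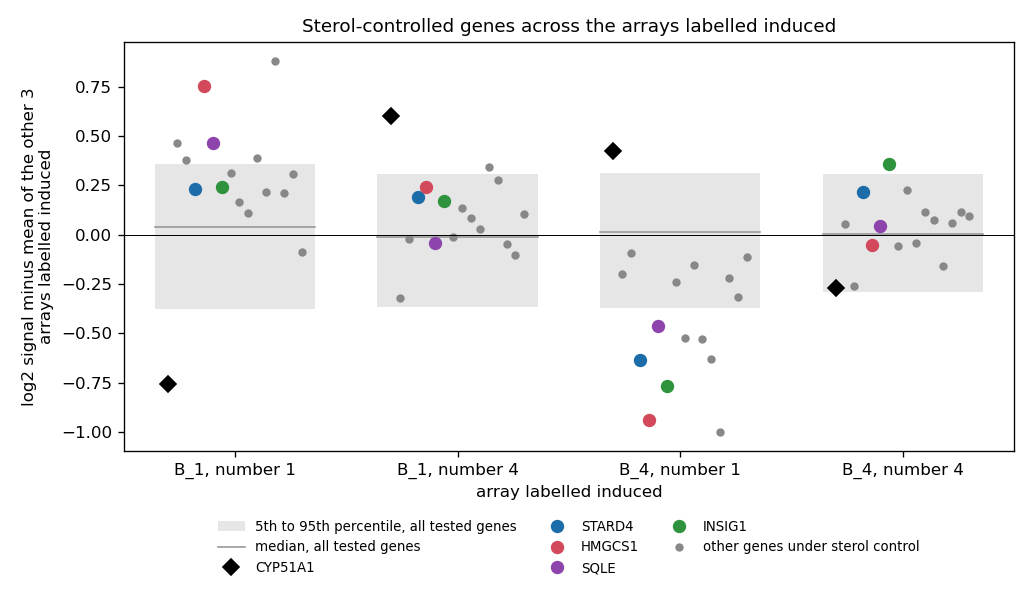
Log2 signal in each array labelled induced minus the mean of the other 3, for the 16 genes under common sterol control; grey boxes span the 5th to the 95th percentile of all tested genes and grey lines their median. In B_4/1 the 15 genes other than CYP51A1 lie below 0; the black diamond is the dim CYP51A1 feature 8180268.

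Without the B_4/1 array labelled induced, HMGCS1 differed between the labels by -0.48, 1.57 times less than with it, and INSIG1 by 0.36. SQLE and INSIG1 then did not overlap between labels, at 0.68 and 0.36, and STARD4 differed by 2.67. CYP51A1 differed by -5.90 and SC5D by -1.96, close to their values over all arrays. The direction of all 7 genes was the same with and without this array.

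The B code was not used to choose the genes and could be tested. By limma, 0 of the 7 genes differed between B_4 and B_1, at an adjusted p of 0.453 or more, and 0 did at an unadjusted p under 0.05. This term averages over both labels, so opposite differences within the labels can cancel in it. Over all tested genes 0% were called, while 1911 (13.9%) had an unadjusted p under 0.05. The differences, B_4 minus B_1, ran from -0.28 ± 0.20 (SE) for HMGCS1 to 0.07 ± 0.17 for STARD4, with 0.05 ± 0.19 for CYP51A1. In arrays labelled uninduced alone, STARD4 had 9.04 and 8.97 in B_4 against 8.56 and 8.55 in B_1. SQLE there had 10.53 and 10.46 against 10.22 and 10.13. HMGCS1 and NSDHL were also higher in B_4 without overlap in these arrays, SC5D was lower, and CYP51A1 and INSIG1 overlapped. Differences between B codes within a label were not tested. Between last numbers limma again called 0 of 7 (adjusted p of 0.713 or more, 0 at an unadjusted p under 0.05) and 0% of all genes, with 971 (7.04%) at an unadjusted p under 0.05.

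Limma's interaction term asks whether the difference between induction labels depended on the B code. It was called for 0 of the 7 genes, at an adjusted p of 0.232 or more, where 0.297% of all tested genes passed. In simulated data this fit recovered 2% of such terms of 0.5 log2 units and 48% of those of 1, so terms of these sizes can go uncalled. At an unadjusted p under 0.05, 4 of 7 genes stood out, as did 11.9% of all genes. These were HMGCS1 (-0.93 ± 0.29 SE), STARD4 (-0.77 ± 0.24), SQLE (-0.63 ± 0.23) and NSDHL (-0.42 ± 0.17), each a smaller or more negative difference in B_4 than in B_1. Without the B_4/1 array labelled induced the same terms were -0.51, -0.43, -0.36 and -0.41, at adjusted p of 0.325 or more by limma. For CYP51A1 the term was 0.13 ± 0.39.

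The genes beside CYP51A1 on chromosome 7 moved in both directions, none by as much as CYP51A1. Of the 5 measured genes on each side, 8 were tested and 6 passed limma's threshold, 3 in each direction, against 55.5% of all tested genes. MTERF1, a mitochondrial transcription termination factor, had 5.94, 5.49, 6.12 and 5.65 in arrays labelled induced, against 3.62, 4.17, 3.77 and 4.05 in arrays labelled uninduced. Its mean in arrays labelled uninduced, 3.90, is under the lowest mean of any tested gene (4.78). It passed the filter through the arrays labelled induced, so no size is given and nothing is read from its call, which is among the 3 higher. AKAP9, a scaffold protein of the centrosome and Golgi, lies between MTERF1 and CYP51A1 and had a difference of 0.10 ± 0.08 (adjusted p = 0.356 by limma). On the other side LRRD1 and, further on, ERVW-1 were below the filter in both groups. ANKIB1 (-0.37), GATAD1 (-0.34) and RBM48 (-0.70) fell, while CLDN12 (0.32) and CDK14 (0.60) rose. The CDK14 call was lost without the labelled induced array B_1/1, B_4/1 or B_4/4, and that of CLDN12 with exon-level means. FZD1, a Wnt receptor, had a difference of -0.17 (adjusted p = 0.339 by limma), which passed with exon-level means (0.00272).

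The 5 tested genes whose profile over the 8 arrays was most like that of CYP51A1 were RTL5 (Pearson r = 0.999), FZD6, IGF2BP1, AMOTL1 and ZNF671 (r of 0.998 to 0.999). The 8 arrays fall into the 2 label groups, so r mostly restates that these genes too were lower with the induced label. RTL5 and FZD6 averaged 4.60 and 4.40 in arrays labelled induced, under the lowest mean of any tested gene (4.78). Both passed the filter through the arrays labelled uninduced. SC5D ranked 1175 and NSDHL 1510 by r to CYP51A1, and HMGCS1 3837.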

How the data were processed

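Total RNA of L1236 cells was hybridised to Affymetrix whole-transcript arrays. The deposited values are the authors' log2 signals. The submitters' processing notes name RMA and Partek and no version. Base 2 was assumed from RMA's usual output and fits the range of the values (2.07 to 14.1); every fold rests on it. Genome build and annotation: not given in the sources used here. Between the gene-level summary and the exon-level one, 4428 of 4428 shared features were identical, so both describe the same 8 arrays. Features were named through the platform annotation and RefSeq (GRCh38.p14); 19460 of 33297 gene-level features had 1 symbol, 1754 several and 12083 none. The feature with the highest mean was kept per gene, and the tests left out genes whose mean lay under the 25th percentile.

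A model in limma 3.58.1 (R 4.3.3) was fitted with terms for induction label, B code and last number, with the B code interaction in a separate fit and Benjamini-Hochberg adjustment over all 13796 tested genes. Column medians ran from 5.79 to 5.88, and the number of arrays limits precision. The scripts were tested on simulated data. The R package data.table, version 1.17.8, read the files. Figures used matplotlib 3.10.9 in Python 3.11.15. The members and gene lists were chosen with earlier results of these data known. Some genes of these lists are not reported here. The rule for named genes took the members, RELB, SREBF1, SREBF2, SCAP, INSIG2, FASN, other listed sterol and fatty acid genes passing the threshold with a log2 difference of at least 1, the 5 measured neighbours on each side of CYP51A1, and the 5 genes with the highest r to it. Alternatives were the filter, normalisation, probe set rule, exon-level means, variance trend, threshold, replicate block, no covariates and each array left out in turn.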

Additional observations from a re-analysis of the deposited data

Results flagged for a closer look

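In the arrays labelled induced, STARD4 had 10.8 in array B_4/1, against 11.37 to 11.40 in the other 3, a gap of 0.955 of the group's whole range. INSIG1 had 9.36 in the same array, against 10.06 to 10.20 in the other 3, a gap of 0.831 of the range. Both gaps exceed the critical value of Dixon's test for 4 arrays at the 95% level. Of 16 groups checked (the 7 genes and RELB in each label group) 2 exceeded it, where chance gives about 1 in 20 independent groups. Both fall in the same array. The groups share arrays and hold genes under common control, so they are not independent and nothing is read from the shared array.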

How the results depend on the processing

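With 4 arrays a group, small differences are beyond the precision of these data. The difference of CYP51A1 was -5.73 as reported, -4.74 as the mean of its gene-level features and -4.51 as the mean of its exon-level features, both of which average in features with smaller differences, and -5.94 to -5.48 with 1 array left out. SC5D differed by -1.71 with exon-level means, and the other 5 members moved by less than 1 SD of the 4 differences between arrays of equal codes in all 12 alternatives each. The RELB difference stayed below the threshold in 14 of 14 alternatives (-0.22 to -0.07). Members called for B code, last number and the interaction numbered 0 in 16 of 16 alternatives each. Sterol genes other than the members called numbered 32 to 35. Neighbours of CYP51A1 called numbered 6, with 3 of 4 tested under a filter at the median, which tests fewer genes, and 4 of 6 tested with exon-level means. Without 1 array labelled uninduced they numbered 6 of 8 tested, and without 1 array labelled induced 4 to 5 of 7. With the pair of equal codes as a replicate block, 32 sterol genes and 6 neighbours were called, and RELB had an adjusted p of 0.222 by limma; SCAP was lost (adjusted p = 0.0606). Arrays of equal codes correlated in their deviations from the group means at -0.02 to 0.16 over tested genes, and 1 of 4 correlated best with the array of its own codes, so the codes were not taken as pairing the arrays. Among single genes, HMGCS1 had its smallest difference (-0.48) without the labelled induced array B_4/1, and INSIG1 ran from 0.01 to 0.36, lowest without array B_4/4 and highest without B_4/1, both labelled induced.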
